A study of Mus musculus with 21 samples.

Results

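The change in gene expression of mouse lung fibroblasts between day 7 and day 14 after injury was compared between 2 models of pulmonary fibrosis, silica (SiO2) and bleomycin (BLM). For each gene the quantity was the interaction of model and time, (SiO2 day 14 minus SiO2 day 7) minus (BLM day 14 minus BLM day 7), on the log2 scale. A positive interaction means that the change in silica lay above the change in bleomycin, and a negative one that it lay below. It rests on 12 of the 21 libraries of the series, 3 in each of 4 groups, and on 11669 of the 23204 gene symbols in the files, those with enough counts to test.

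All libraries came from female C57BL/6 mice that carry a green fluorescent protein (GFP) transgene under the Col1a2 promoter, and every cell analysed was sorted by that reporter. The groups were fibroblasts taken 14 and 7 days after a single aspiration of crystalline silica at 400 mg per kg, and 14 and 7 days after a single aspiration of bleomycin sulfate at 2 mg per kg. Fibroblasts of untreated mice, 3 libraries, are given for orientation only; the labels name no group that received saline alone. Before the sort, cells that bore CD45, EpCAM, CD31, Ter119 or CD146 were depleted, 10000 GFP-positive cells went into each library, and tags from the 3′ ends of polyadenylated RNA were counted. The gate selects cells with an active Col1a2 promoter, so fibroblasts with little collagen synthesis may be missing from every group. The labels do not say whether the 3 libraries of a group came from separate mice, so p-values measure the spread between libraries, which may be technical.

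After injury, resident lung fibroblasts divide, take on the contractile machinery of myofibroblasts and secrete fibrillar collagens, fibronectin and matricellular proteins, which together form scar. In the mouse, bleomycin gives a burst of epithelial damage followed by scarring that later recedes, whereas silica crystals persist in the lung and scarring goes on around them. Transforming growth factor beta and activins drive the matrix programme, type I and type II interferons drive a separate set of antiviral and antigen-presentation genes, and resting alveolar and adventitial fibroblasts each have a characteristic set of transcripts that injury lowers.

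Total counts over the 12 libraries ran from 2904599 to 4272100, and the biological coefficient of variation of the model was 12.0%. Values per library are CPM, counts relative to the library's total scaled by the trimmed mean of M values (TMM), given in the order of replicates 1, 2 and 3. Changes and interactions are log2 values, and rose, fell, higher and lower are used of called genes. Standard errors (SE) were worked back from edgeR's quasi-likelihood test, with 3 libraries per group. Each is the size of the log2 value divided by the square root of its F statistic. A gene was called when its Benjamini-Hochberg adjusted p over all 11669 genes was under 0.05. Because sorted cells were measured in bulk, fewer cells of a type and less RNA per cell cannot be told apart. The fibroblast genes Col1a2, Col3a1 and Dcn were abundant in every library, while Pecam1, Cdh5, Cd3e and Cd79a, which define endothelium and lymphocytes, had 2, 0, 0 and 0 counts over the 12 libraries together. Ptprc, the gene of CD45, had 11 counts and Epcam had 12 counts over the same libraries. Other markers of endothelium, myeloid cells, lymphocytes and epithelium were higher. Tek, Tyrobp, Ccl5 and Sftpc had highest group means of 12.3, 21.8, 55.1 and 12.8 CPM.

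Many genes changed differently in the 2 models between day 7 and day 14. The interaction was called for 2242 genes, 19.2% of those tested, of which 1137 (9.74%) were higher and 1105 (9.47%) lower; its median over all tested genes was -0.016. Among the 2242, the fitted changes of silica and bleomycin had opposite signs in 1871 (83.5%), a share that choosing genes by the difference of the 2 changes favours, and the change was larger in bleomycin in 701 (31.3%). Taken alone, silica changed 2723 genes from day 7 to day 14 (23.3%; 1425 rose and 1298 fell), and bleomycin changed 1169 (10.0%; 607 rose and 562 fell). The bleomycin count was 661 without the first BLM day 7 library. These 2 lists come from different libraries and share 520 genes, which are 19.1% of the silica list and 44.5% of the bleomycin list. Of the shared genes, 187 rose in silica and fell in bleomycin, 141 fell in silica and rose in bleomycin, 99 rose in both and 93 fell in both. Across all 11669 genes the 2 changes had a Pearson correlation of -0.09 and a Spearman correlation of -0.079, given as a description, since genes are not independent replicates.

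Of the 1137 genes with a higher interaction, 628 rose in silica with no call in bleomycin, 187 rose in silica and fell in bleomycin, 174 fell in bleomycin with no call in silica, and 137 were called in neither model alone. Of the 1105 genes with a lower interaction, 593 fell in silica with no call in bleomycin, 141 fell in silica and rose in bleomycin, 211 rose in bleomycin with no call in silica, and 130 were called in neither. The same interaction can be read as a change of the gap between the models. Silica and bleomycin differed in 1994 genes at day 14 (17.1%) and in 1212 genes at day 7 (10.4%). The gap was smaller at day 14 than at day 7 for 873 (38.9%) of the 2242 interaction genes. These contrasts share libraries with the interaction and are not independent of it. Most single changes were modest, since 1372 of the 2242 (61.2%) changed by less than 2-fold in each model.

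**Figure D1:**
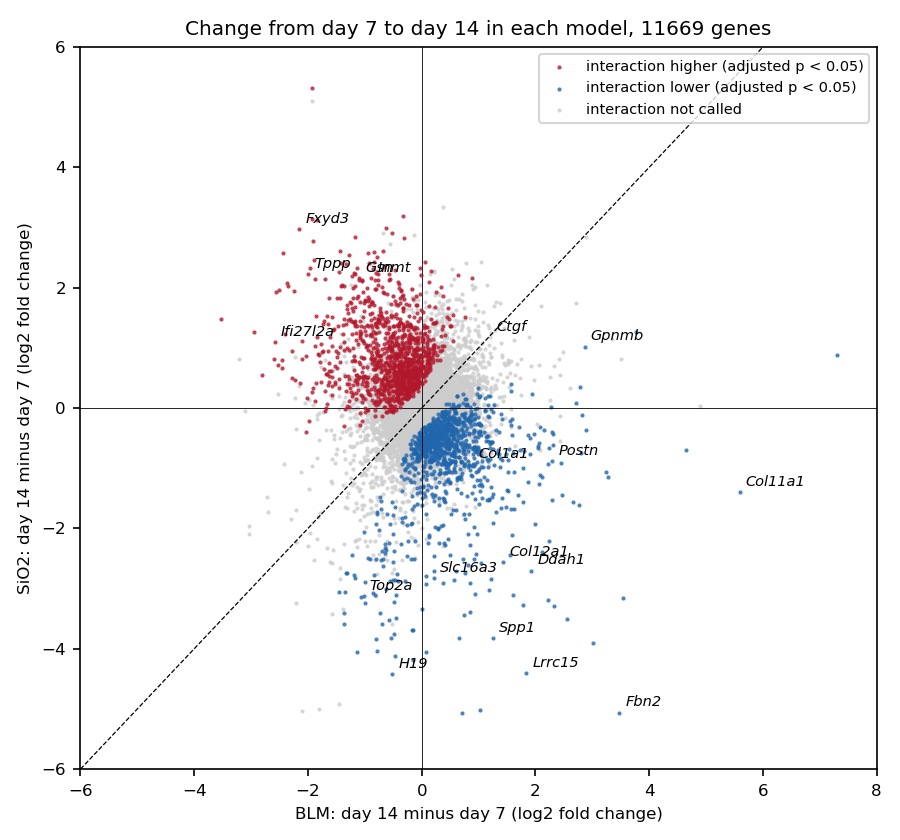
Each point is 1 of 11669 genes, with its log2 change from day 7 to day 14 in silica (vertical axis) and in bleomycin (horizontal axis). The dashed line marks equal changes. The 1137 genes with a higher interaction lie above it, and the 1105 with a lower interaction lie below it.

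Most called genes of the list of fibrillar collagens, collagens of other kinds and collagen cross-linking fell in silica and rose in bleomycin between day 7 and day 14. Among the other kinds were Col12a1, Col14a1, Col8a1 and Col6a2. Of 26 tested members of this list, 16 had a lower interaction and 2 a higher one, with a list median of -1.10, against the shares of 9.47% and 9.74% over all tested genes. Counts of 1 or 2 members in a direction, in this and the other programme lists, are close to such shares or below them. The same shares apply to the interaction counts of every list below. By day 14, 13 members had fallen and 3 had risen in silica, where 11.1% of all tested genes fell and 12.2% rose. In bleomycin 12 had risen and 1 had fallen, against 5.20% and 4.82% of all tested genes. Without the first SiO2 day 7 or the second SiO2 day 14 library 4 members had a higher interaction. Col1a1, the alpha 1 chain of type I collagen (chromosome 11, 94936224 to 94953042 of mm10), had 2325, 2643 and 1912 CPM in SiO2 day 14 libraries, against 4012, 4454 and 4669 CPM in SiO2 day 7 libraries. The gene had 3956, 3316 and 3414 CPM in BLM day 14 libraries, against 1349, 2259 and 2142 CPM in BLM day 7 libraries. The groups of each model did not overlap, and untreated libraries averaged 689 ± 27.4 CPM (SD, n = 3). Its log2 change was -0.93 ± 0.13 in silica and 0.89 ± 0.13 in bleomycin, and the interaction was -1.83 ± 0.19 (edgeR adjusted p = 1.78e-08). Col1a2, the partner chain and the promoter that drives the sorting reporter, had an interaction of -1.44 ± 0.14 (edgeR adjusted p = 1.07e-08).

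The lowest interactions of this list were those of Col11a1, Col8a1 and Col12a1. Col12a1, a fibril-associated collagen, had 34.8, 50.4 and 23.8 CPM in SiO2 day 14 libraries, against 213, 217 and 214 CPM in SiO2 day 7 libraries. It had 148, 160.2 and 139.8 CPM in BLM day 14 libraries, against 39.5, 67.9 and 58.0 CPM in BLM day 7 libraries. Neither pair of groups overlapped, and the interaction was -4.0 ± 0.28 (edgeR adjusted p = 1.73e-11). Col11a1, a chain of fibril-nucleating type XI collagen, had 75.2, 55.9 and 164 CPM in BLM day 14 libraries, against 0.871, 2.38 and 2.85 CPM in BLM day 7 libraries. In silica it had 5.05, 50.1 and 24.1 CPM in SiO2 day 14 libraries, against 40.4, 124 and 47.6 CPM in SiO2 day 7 libraries, and these groups overlapped. The interaction of -6.98 ± 0.77 (edgeR adjusted p = 6.91e-08) stood beside a change of 5.59 ± 0.62 in bleomycin and of -1.40 ± 0.42 in silica, both called. Col8a1, a short-chain collagen, had 15.9, 23.3 and 21 CPM in bleomycin day 14 libraries and at most 1.32 CPM in every other library of the 4 groups. Its call (edgeR adjusted p = 0.00206) was lost without the third SiO2 day 7 library, where the adjusted p was 0.129. Col5a1, which sets fibril diameter, had an interaction of -1.80 ± 0.18, and Lox, the enzyme that cross-links collagen and elastin, -1.58 ± 0.21. Col3a1 was less affected, with an interaction of -0.69 ± 0.17 (edgeR adjusted p = 0.00397): it rose by 0.53 ± 0.12 in bleomycin, and its change of -0.16 ± 0.12 in silica was not called. The members with a higher interaction were Col14a1, a fibril-associated collagen of adventitial fibroblasts (1.26 ± 0.22), and Col6a2 (0.87 ± 0.15).

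Matrix glycoproteins and proteoglycans had interactions in both directions. Of 26 tested members, 12 had a lower and 7 a higher interaction, with a median of -0.60. Spp1, which encodes the matricellular cytokine osteopontin (chromosome 5, 104435111 to 104441053 of mm10), had 99.0, 115 and 38.9 CPM in SiO2 day 14 libraries, against 1040.1, 776 and 1755 CPM in SiO2 day 7 libraries. In bleomycin it had 2824, 1718 and 1716 CPM in BLM day 14 libraries, against 622, 1004 and 1006 CPM in BLM day 7 libraries. It was near 0 without injury, with 0.909 ± 0.143 CPM in untreated libraries (SD, n = 3). The log2 changes of -3.82 ± 0.33 in silica and 1.25 ± 0.29 in bleomycin were both called, and the interaction was -5.07 ± 0.44 (edgeR adjusted p = 8.32e-10). Fn1, fibronectin, had 565, 665 and 399 CPM in SiO2 day 14 libraries, against 1118, 879.6 and 1150.0 CPM in SiO2 day 7 libraries. It had 2234, 1919.9 and 1889 CPM in BLM day 14 libraries, against 613, 996 and 892 CPM in BLM day 7 libraries, with an interaction of -2.22 ± 0.22 (edgeR adjusted p = 1.07e-08). Fibronectin was lower in every SiO2 day 14 library than at SiO2 day 7 and higher in every BLM day 14 library than at BLM day 7. Postn, periostin, a matricellular protein of activated fibroblasts, had 34.5, 43.4 and 16.3 CPM in SiO2 day 14 libraries, against 77.3, 46.5 and 48.1 CPM in SiO2 day 7 libraries. It had 108, 73.8 and 81.2 CPM in BLM day 14 libraries, against 10.2, 20.9 and 22.5 CPM in BLM day 7 libraries, with an interaction of -3.17 ± 0.35 (edgeR adjusted p = 6.30e-08). Periostin split in the same way, with no overlap within either model.

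Thbs2 and Thbs4, thrombospondins, had interactions of -3.81 ± 0.23 and -4.29 ± 0.78. Cthrc1, a secreted marker of strongly collagen-producing lung fibroblasts, had 2.67, 4.0 and 2.43 CPM in SiO2 day 14 libraries, against 6.52, 10.1 and 8.35 CPM in SiO2 day 7 libraries. It had 38.8, 43.9 and 38.4 CPM in BLM day 14 libraries, against 3.19, 8.98 and 9.82 CPM in BLM day 7 libraries, so bleomycin day 14 libraries stood above all others, and the interaction was -3.90 ± 0.40 (edgeR adjusted p = 2.23e-08). Fmod, the collagen-binding proteoglycan fibromodulin, rose by 2.71 ± 0.21 in bleomycin and had an uncalled change of 0.09 ± 0.20 in silica, with an interaction of -2.62 ± 0.29. The members with a higher interaction included the elastic-fibre and basement-membrane protein fibulin 1 (Fbln1, 2.2 ± 0.18) and decorin (Dcn, 1.03 ± 0.23), both abundant in untreated fibroblasts at 557 and 14082 CPM. Fbn2, fibrillin 2, is a microfibril protein best known from development. It had 0.594, 0.533 and 0 CPM in SiO2 day 14 libraries, against 12.8, 14.6 and 11.6 CPM in SiO2 day 7 libraries. It had 18.7, 21.8 and 21 CPM in BLM day 14 libraries, against 0.580, 2.64 and 2.22 CPM in BLM day 7 libraries, and the interaction of -8.53 ± 0.59 was the smallest of the genes considered for naming. The 3 silica day 14 libraries held 4 counts of Fbn2 in all, so the size of that value is poorly determined.

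**Figure D2:**
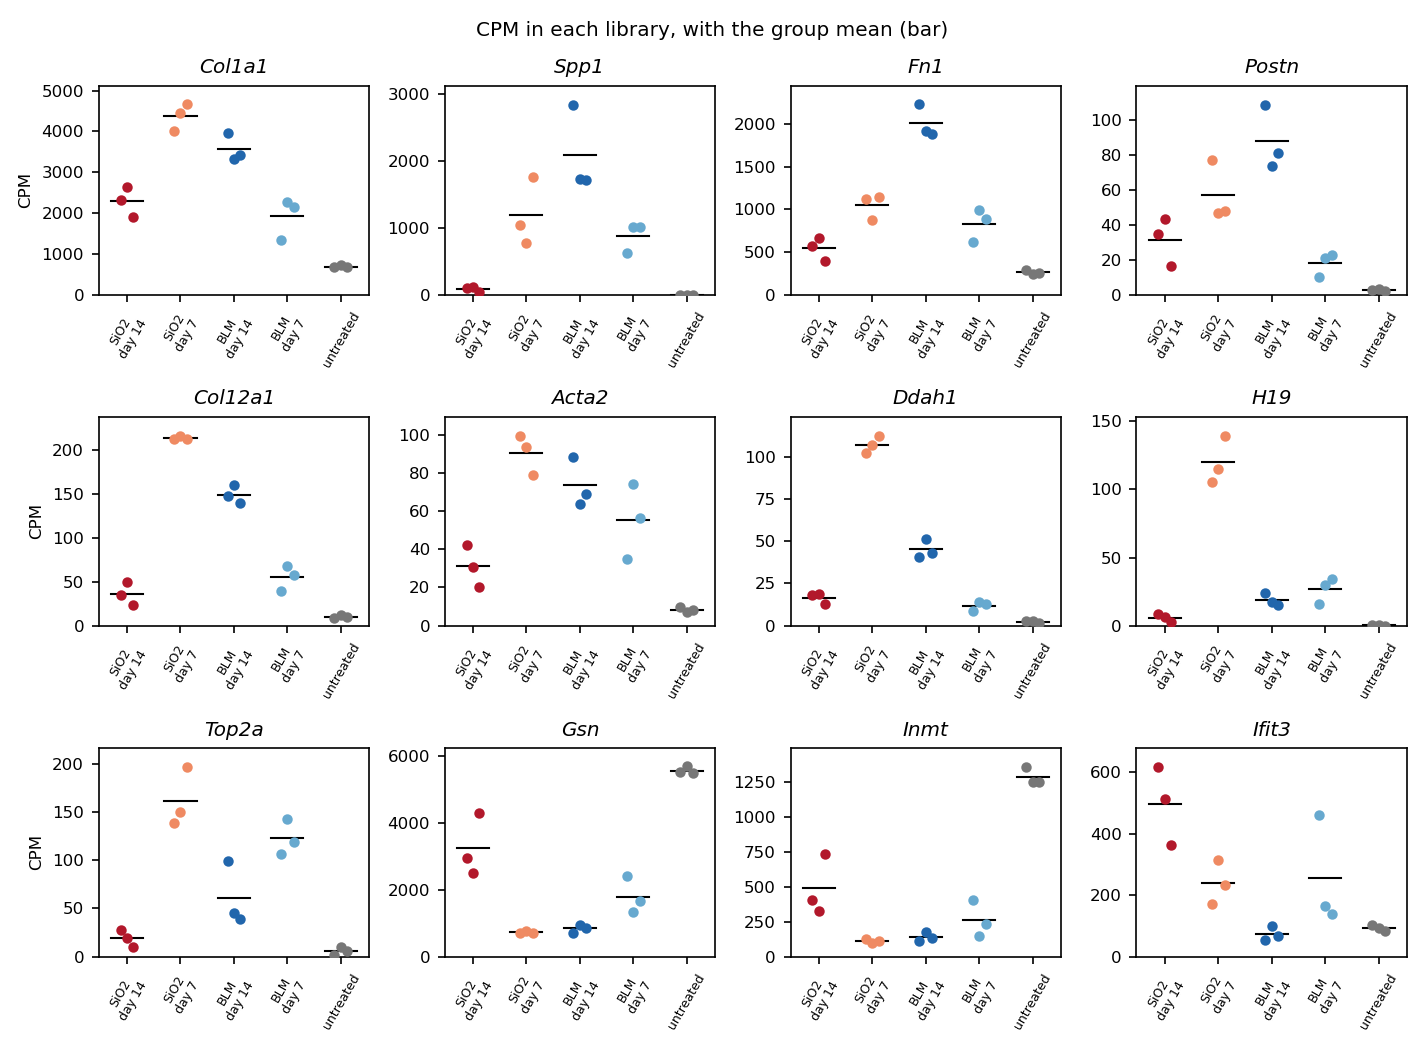
CPM of 12 genes in each library (points) with the mean of the 3 libraries (bar), in SiO2 day 14, SiO2 day 7, BLM day 14, BLM day 7 and untreated fibroblasts. Matrix, contractile and cell-cycle genes are lower in SiO2 day 14 than in SiO2 day 7 libraries, while Gsn, Inmt and Ifit3 are higher in SiO2 day 14 than in SiO2 day 7 libraries.

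Among called proteases and inhibitors of the matrix, most had a lower interaction. Of 22 tested members, 9 had a lower and 2 a higher interaction. Adam12 and Adam19, membrane-bound metalloproteases, had interactions of -3.76 ± 0.38 and -2.59 ± 0.29, and Adamts12, a secreted one, -2.34 ± 0.27. Timp1, an inhibitor of metalloproteases, fell by 0.93 ± 0.13 in silica and had an uncalled change of -0.24 ± 0.13 in bleomycin, with an interaction of -0.69 ± 0.19 (edgeR adjusted p = 0.00857). The members with a higher interaction were the gelatinase Mmp2 (0.74 ± 0.18) and stromelysin 1, Mmp3 (1.52 ± 0.28), and 4 members were higher without the second BLM day 14 library.

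Basement membrane genes were divided, with 7 of 16 tested members higher and 4 lower. Nid2, a nidogen that links laminin to collagen IV, had 17.5, 16.8 and 12.1 CPM in SiO2 day 14 libraries, against 56.9, 78.1 and 128 CPM in SiO2 day 7 libraries. It had 41.7, 26.9 and 28.5 CPM in BLM day 14 libraries, against 13.6, 19.5 and 17.7 CPM in BLM day 7 libraries, with an interaction of -3.42 ± 0.34. The SiO2 day 7 libraries were the highest of the 12. Npnt, nephronectin, an integrin alpha 8 ligand of alveolar fibroblasts, had an interaction of 2.13 ± 0.19 in the other direction, and Lama4, a laminin chain, 1.03 ± 0.16. Col4a1, a chain of type IV collagen, rose by 0.93 ± 0.15 in bleomycin, and its change of -0.02 ± 0.15 in silica was not called.

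Contractile genes, which characterise myofibroblasts, had a lower interaction in 12 of 19 tested members and a higher one in 2, with a median of -0.91. Acta2, smooth muscle alpha actin, had 42.2, 30.9 and 20.2 CPM in SiO2 day 14 libraries, against 99.6, 93.8 and 79.0 CPM in SiO2 day 7 libraries. It had 88.3, 63.6 and 68.8 CPM in BLM day 14 libraries, against 35.1, 74.5 and 56.4 CPM in BLM day 7 libraries. The silica groups did not overlap and the bleomycin groups did, and the interaction was -1.96 ± 0.28 (edgeR adjusted p = 5.39e-06). Actg2, the gamma isoform of smooth muscle actin, had 50.2, 44.5 and 31.6 CPM in SiO2 day 14 libraries, against 368, 250.0 and 219 CPM in SiO2 day 7 libraries. It had 263, 175 and 163 CPM in BLM day 14 libraries, against 58.6, 155 and 138 CPM in BLM day 7 libraries, with an interaction of -3.50 ± 0.33 (edgeR adjusted p = 5.07e-09). Within each model the groups did not overlap. The tropomyosins Tpm1 and Tpm2 had interactions of -1.56 ± 0.21 and -1.81 ± 0.21. Tagln, transgelin, did not pass (interaction -0.88 ± 0.33, edgeR adjusted p = 0.0554), but passed without the second or the third BLM day 7 or SiO2 day 7 library (lowest edgeR adjusted p = 0.0122). In all, Tagln passed in 5 of 20 alternatives, these omissions among them. Myh10, a nonmuscle myosin, and Synpo2, an actin-bundling protein, were the members with a higher interaction (0.51 ± 0.13 and 1.38 ± 0.49). The call of Synpo2 was lost without the first BLM day 7 library (edgeR adjusted p = 0.172) and without several other single libraries, under limma-voom (adjusted p = 0.057) and with only the 12 libraries fitted (edgeR adjusted p = 0.0848).

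The ligands that act on fibroblasts diverged too, with no single direction for the pathway lists. Of 25 tested genes of transforming growth factor beta, activin and bone morphogenetic protein signalling, 6 had a higher and 5 a lower interaction. Over all tested genes the shares were 9.74% and 9.47%. Inhba, the subunit of activin A, had 2.08, 1.87 and 0.972 CPM in SiO2 day 14 libraries, against 13.3, 13.0 and 15.4 CPM in SiO2 day 7 libraries. It had 13.4, 8.07 and 10.2 CPM in BLM day 14 libraries, against 2.90, 6.60 and 6.97 CPM in BLM day 7 libraries, with an interaction of -4.02 ± 0.47 (edgeR adjusted p = 1.99e-07). The SiO2 day 14 libraries were the lowest of the 12. Fst, follistatin, which binds and blocks activins, had -2.68 ± 0.29, and Grem1, gremlin 1, a secreted inhibitor of bone morphogenetic proteins, -3.71 ± 0.48. Tgfb1, the ligand most closely tied to fibrosis, fell by 1.10 ± 0.21 in silica and had an uncalled change of 0.17 ± 0.20 in bleomycin, with an interaction of -1.27 ± 0.29 (edgeR adjusted p = 0.00166). Ltbp4, which tethers latent transforming growth factor beta to elastic fibres, had 2.13 ± 0.27 and Bmp4, a bone morphogenetic protein, 1.46 ± 0.29. Ctgf, a secreted target of this pathway, rose by 1.18 ± 0.14 in silica and by 1.21 ± 0.14 in bleomycin. Its interaction of -0.03 ± 0.20 had a 95% interval of -0.43 to 0.38.

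Of 23 tested genes of Wnt signalling, 6 had a higher and 3 a lower interaction, against 9.74% and 9.47% of all tested genes. The lower count was thus near the background. Wnt2, a ligand of resting lung fibroblasts, had 2.56 ± 0.38 (edgeR adjusted p = 1.04e-05), and Axin2, a feedback target of the pathway, 1.00 ± 0.21. Rspo3, an R-spondin that amplifies Wnt signals, had 34.5, 28.0 and 15.6 CPM in SiO2 day 14 libraries, against 85.0, 128 and 161 CPM in SiO2 day 7 libraries. It had 33.9, 27.2 and 25.4 CPM in BLM day 14 libraries, against 10.7, 19.3 and 17.7 CPM in BLM day 7 libraries, with an interaction of -3.12 ± 0.34 (edgeR adjusted p = 5.03e-08). The SiO2 day 7 libraries stood above every bleomycin library. The receptor Fzd1 had -1.12 ± 0.21. Among 14 tested genes of Notch and platelet-derived growth factor signalling, 3 were higher and 4 lower, against the same shares. Only 1 was higher without the first BLM day 7, the second SiO2 day 7, or the second or the third SiO2 day 14 library. Pdgfc, a ligand of the alpha receptor, had 0.891, 1.87 and 0.486 CPM in SiO2 day 14 libraries, against 3.76, 7.70 and 5.82 CPM in SiO2 day 7 libraries. It had 19.4, 14.6 and 11.3 CPM in BLM day 14 libraries, against 2.03, 5.02 and 3.17 CPM in BLM day 7 libraries, with an interaction of -4.50 ± 0.61 (edgeR adjusted p = 2.43e-06). Every BLM day 14 library stood above all the others. The receptor Pdgfrb had -1.68 ± 0.25, whereas Pdgfra had 0.31 ± 0.15, which was not called. Hey2, a Notch target, had 2.27 ± 0.39.

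Of 21 tested growth factors and their binding proteins, 9 had a lower and 6 a higher interaction. Ereg, the epidermal growth factor receptor ligand epiregulin, had 11.6, 8.26 and 7.29 CPM in SiO2 day 14 libraries, against 41.6, 53.1 and 51.1 CPM in SiO2 day 7 libraries. It had 41.0, 33.8 and 37.0 CPM in BLM day 14 libraries, against 18.6, 31.2 and 29.2 CPM in BLM day 7 libraries, with an interaction of -2.93 ± 0.33 (edgeR adjusted p = 1.11e-07). Both models' groups were apart, and the bleomycin change of 0.50 ± 0.22 was not called. The neurotrophic factors Gdnf and Bdnf had interactions of -2.44 ± 0.32 and -1.70 ± 0.32, from rises of 2.79 ± 0.24 and 1.93 ± 0.22 in bleomycin, while their changes of 0.35 ± 0.22 and 0.23 ± 0.23 in silica were not called. H19, an imprinted noncoding RNA, had 8.62, 6.13 and 2.43 CPM in SiO2 day 14 libraries, against 106, 115 and 139 CPM in SiO2 day 7 libraries. It had 23.7, 17.3 and 15.2 CPM in BLM day 14 libraries, against 15.7, 29.6 and 34.5 CPM in BLM day 7 libraries, with an interaction of -3.90 ± 0.40 (edgeR adjusted p = 1.69e-08). For H19 the silica day 7 libraries stood far above all others, and bleomycin contributed an uncalled change of -0.52 ± 0.26. Igfbp6, which binds insulin-like growth factor 2, had an interaction of 2.81 ± 0.22 in the other direction, while Igfbp2 had -3.13 ± 0.79 and Igfbp3 -1.16 ± 0.31.

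Transcripts that characterise resting fibroblasts moved against the matrix genes. Of 21 tested adventitial fibroblast genes, 16 had a higher and 1 a lower interaction, and the list median of 2.2 was the highest of the 27 programme lists. By day 14, 15 members had risen and 1 had fallen in silica, whereas 2 had risen and 10 had fallen in bleomycin. Of all tested genes 12.2% rose and 11.1% fell in silica, and 5.20% rose and 4.82% fell in bleomycin. Gsn, gelsolin, an actin-severing protein (chromosome 2, 35256359 to 35307902 of mm10), had 2939.8, 2503 and 4296 CPM in SiO2 day 14 libraries, against 714, 758 and 704 CPM in SiO2 day 7 libraries. It had 699, 956 and 869 CPM in BLM day 14 libraries, against 2405, 1331 and 1652 CPM in BLM day 7 libraries. The silica day 14 libraries lay between those of day 7 and the untreated ones, which averaged 5561 ± 112 CPM (SD, n = 3). The interaction was 3.26 ± 0.23 (edgeR adjusted p = 1.82e-11). Pcolce2, an enhancer of procollagen processing, had 3.17 ± 0.23. Pi16 and Dpp4, both markers of adventitial fibroblasts, had 2.36 ± 0.26 and 3.40 ± 0.70, and Clec3b, tetranectin, 2.98 ± 0.30. The exception was Igfbp4, which binds insulin-like growth factors, with -0.63 ± 0.16, and 2 members were lower without the second or the third BLM day 7, the first SiO2 day 7, or the first or second SiO2 day 14 library. All 8 tested mesothelial markers also rose in silica, and their part in this result was not tested.

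Of 21 tested genes of alveolar and lipid-storing fibroblasts, 15 had a higher and 1 a lower interaction, with a median of 1.02. In silica 16 rose by day 14, against 12.2% of all tested genes, and in bleomycin 4 rose and 9 fell, against 5.20% and 4.82%. The bleomycin counts were 2 and 3 without the first BLM day 7 library, and 5 and 4 members fell without the second and the third BLM day 14 library. Inmt, indolethylamine N-methyltransferase, had 404, 325 and 735 CPM in SiO2 day 14 libraries, against 123, 96.7 and 108 CPM in SiO2 day 7 libraries. It had 110.2, 179 and 135 CPM in BLM day 14 libraries, against 406, 148 and 231 CPM in BLM day 7 libraries. The silica groups did not overlap, the bleomycin groups did, and the interaction was 3.04 ± 0.34 (edgeR adjusted p = 9.86e-08). Untreated libraries averaged 1285 ± 64.0 CPM (SD, n = 3), above every injured library. Ces1d, a carboxylesterase, had 2.28 ± 0.24 and Slc7a10, an amino acid transporter of fat cells, 4.44 ± 0.88. G0s2, an inhibitor of triglyceride lipase, had 2.31 ± 0.28 and Tcf21, a transcription factor of lipofibroblasts, 0.85 ± 0.21. Itga8, the integrin alpha 8 subunit, rose by 1.33 ± 0.11 in silica and had an uncalled change of 0.05 ± 0.11 in bleomycin, with an interaction of 1.28 ± 0.15. Lpl, lipoprotein lipase, was the member with a lower interaction (-1.11 ± 0.26), from a rise of 0.94 ± 0.18 in bleomycin.

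**Figure D3:**
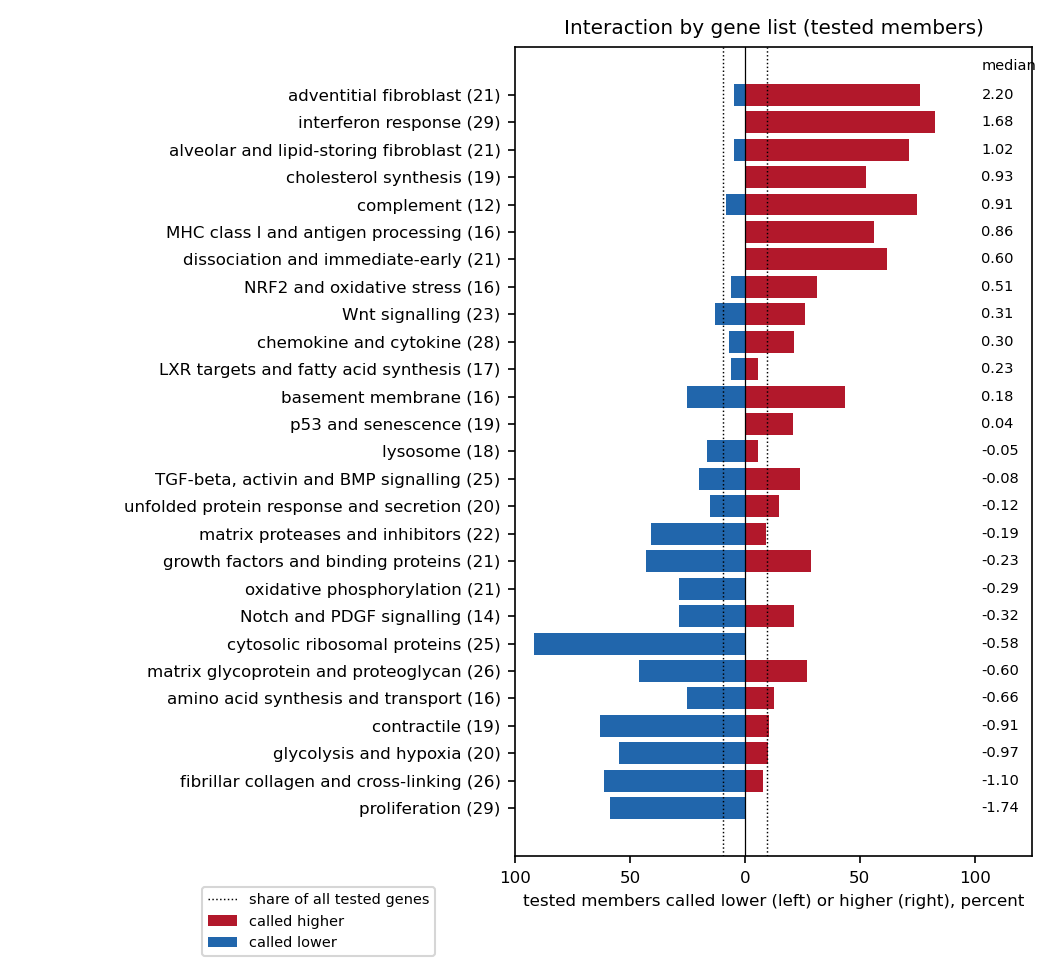
Share of the tested members of 27 gene lists with a higher (right) or lower (left) interaction, ordered by the list's median log2 interaction, which is printed at the right; the number of tested members is in brackets. Dotted lines mark the shares over all tested genes, 9.74% and 9.47%. Adventitial and interferon lists lie at the top, and proliferation and fibrillar collagen lists at the bottom.

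Many cell-cycle transcripts fell in silica between day 7 and day 14, and fewer fell in bleomycin. Of 29 tested proliferation genes, 17 had a lower interaction, with a median of -1.74. In silica 26 fell by day 14, against 11.1% of all tested genes, and in bleomycin 5 fell, against 4.82%, with median changes of -2.82 and -0.648. DESeq2 called 3 of the 5. Top2a, topoisomerase II alpha, which disentangles replicated chromosomes, had 27.9, 19.2 and 9.48 CPM in SiO2 day 14 libraries, against 139, 150.1 and 196 CPM in SiO2 day 7 libraries. It had 99.6, 45.4 and 39.0 CPM in BLM day 14 libraries, against 106, 143 and 119 CPM in BLM day 7 libraries. Its log2 changes of -3.12 ± 0.30 in silica and -1.02 ± 0.27 in bleomycin were both called, and the interaction was -2.10 ± 0.40 (edgeR adjusted p = 2.71e-04). Tk1, thymidine kinase, and Nusap1, a spindle protein, also fell in both models, with interactions of -2.06 ± 0.33 and -1.66 ± 0.30. Cdk1, the mitotic kinase, had -3.34 ± 0.69. The summed level of the list was 133, 95.7 and 78.2 CPM in SiO2 day 14 libraries, against 554, 604 and 758 CPM in SiO2 day 7 libraries. It was 430.2, 255 and 212 CPM in BLM day 14 libraries, against 463, 617 and 571 CPM in BLM day 7 libraries, and the first BLM day 14 library was the highest of its group. With a stricter filter, at least 10 CPM in 3 libraries, fewer members were tested, 13 fell in silica and 10 had a lower interaction. At day 7 the 2 models differed in 0 of the 29 members by edgeR, DESeq2 and limma-voom, and in 1 at an unadjusted edgeR p under 0.05, against 10.4% of all tested genes called by edgeR.

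Many cell-cycle promoters carry the cell cycle genes homology region, TTTGAA, near their start. The 6 letters were searched on both strands in the 300 bases around each start (250 before to 50 after) given by RefSeq for build GRCm38.p6. They were found in 14 of the 26 proliferation promoters in that table (53.8%), against 11.6% of the 8398 promoters of tested genes and 18.1% of all 27025. The promoters of Top2a and Cdk1 are shown as carriers of the letters, with the matches in capitals. Tk1 and Nusap1, which also fell in silica, had no match in their windows.
Top2a (chr11:99024140-99024439, minus strand): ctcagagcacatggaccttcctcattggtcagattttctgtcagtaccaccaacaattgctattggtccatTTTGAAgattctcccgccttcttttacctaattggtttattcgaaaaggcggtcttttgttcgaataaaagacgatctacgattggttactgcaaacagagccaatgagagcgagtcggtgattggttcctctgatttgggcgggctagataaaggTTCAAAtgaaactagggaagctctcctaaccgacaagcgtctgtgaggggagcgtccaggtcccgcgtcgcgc
Cdk1 (chr10:69352863-69353162, minus strand): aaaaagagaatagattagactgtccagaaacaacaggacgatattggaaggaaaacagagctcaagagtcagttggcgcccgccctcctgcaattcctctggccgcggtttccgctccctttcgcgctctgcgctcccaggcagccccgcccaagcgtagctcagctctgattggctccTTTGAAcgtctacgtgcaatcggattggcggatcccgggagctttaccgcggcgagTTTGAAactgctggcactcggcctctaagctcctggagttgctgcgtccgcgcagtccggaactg
The match is a description of these windows and not a measured site.

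Genes of the interferon response separated the models by day 14. Of 29 tested members, 24 had a higher interaction, with a median of 1.68. In bleomycin 24 fell by day 14, and in silica 7 rose, against 4.82% and 12.2% of all tested genes. At day 7 the models differed in 2 of the 29 members, against 10.4% of all tested genes. At day 14 silica was higher than bleomycin in 27 and lower in 1, against 9.06% and 8.03% of all tested genes. Ifit3, an antiviral protein induced by interferon (chromosome 19, 34583119 to 34588982 of mm10), had 618, 512 and 363 CPM in SiO2 day 14 libraries, against 171, 313 and 232 CPM in SiO2 day 7 libraries. It had 52.6, 101 and 68.0 CPM in BLM day 14 libraries, against 459, 166 and 138 CPM in BLM day 7 libraries. The groups of each model did not overlap, and the interaction was 2.84 ± 0.40 (edgeR adjusted p = 3.71e-06). Ifi27l2a, which encodes an interferon-induced mitochondrial protein and is not a member of the list, had 11719, 9249 and 7900.5 CPM in SiO2 day 14 libraries, against 3553, 5594 and 4322 CPM in SiO2 day 7 libraries. It had 871, 1236 and 1185 CPM in BLM day 14 libraries, against 10097, 4792 and 4907 CPM in BLM day 7 libraries, with an interaction of 3.69 ± 0.32 (edgeR adjusted p = 1.19e-09). All 3 BLM day 14 libraries were the lowest of the 12, and the silica groups did not overlap.

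Gbp3, a guanylate-binding GTPase, had 2.77 ± 0.32, and Oasl2, of the oligoadenylate synthetase family, 2.26 ± 0.32. Irf7, a transcription factor that amplifies interferon signals, had 3.26 ± 0.47 and Isg15, a ubiquitin-like protein, 2.19 ± 0.36. The summed level of the list was 5274, 4637 and 3992 CPM in SiO2 day 14 libraries, against 3315, 4351 and 4190.5 CPM in SiO2 day 7 libraries. It was 1339.6, 1743 and 1604 CPM in BLM day 14 libraries, against 4845, 2626 and 2499 CPM in BLM day 7 libraries. The first BLM day 7 library was the highest of its group by far. Without it, 22 members had a higher interaction and 11 rose in silica. The count of members that rose in silica was 3 without the first SiO2 day 7 or the first SiO2 day 14 library and 4 without the second SiO2 day 14 library. Those 2 counts are near the share of all tested genes that rose in silica as reported, 12.2%.

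Promoters of interferon-stimulated genes are known for the interferon-stimulated response element, whose core is written here as GAAANNGAAA and was searched on both strands in the same windows. It was found in 12 of the 21 interferon promoters in the table (57.1%), against 3.12% of the 8398 promoters of tested genes and 3.49% of all 27025. The promoters of Ifit3 (interaction 2.84), Isg15 (2.19) and Bst2, a membrane tether of enveloped viruses (1.66), are shown as carriers of the element. Matches are in capitals and may overlap. Irf7 (3.26) and Oasl2 (2.26) had no match in their windows.
Ifit3 (chr19:34583279-34583578, plus strand): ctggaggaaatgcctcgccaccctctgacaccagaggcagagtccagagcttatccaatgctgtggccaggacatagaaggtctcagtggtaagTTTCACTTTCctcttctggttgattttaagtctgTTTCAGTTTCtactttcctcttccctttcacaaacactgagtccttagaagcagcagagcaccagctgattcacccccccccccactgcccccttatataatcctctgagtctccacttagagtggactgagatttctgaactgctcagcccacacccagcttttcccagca
Isg15 (chr4:156200769-156201068, minus strand): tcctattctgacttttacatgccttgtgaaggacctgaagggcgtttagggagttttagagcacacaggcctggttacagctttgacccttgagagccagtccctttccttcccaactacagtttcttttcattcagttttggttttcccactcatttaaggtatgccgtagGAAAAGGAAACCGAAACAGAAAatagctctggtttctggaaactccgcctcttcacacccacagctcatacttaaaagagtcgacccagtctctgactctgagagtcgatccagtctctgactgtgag
Bst2 (chr8:71537423-71537722, minus strand): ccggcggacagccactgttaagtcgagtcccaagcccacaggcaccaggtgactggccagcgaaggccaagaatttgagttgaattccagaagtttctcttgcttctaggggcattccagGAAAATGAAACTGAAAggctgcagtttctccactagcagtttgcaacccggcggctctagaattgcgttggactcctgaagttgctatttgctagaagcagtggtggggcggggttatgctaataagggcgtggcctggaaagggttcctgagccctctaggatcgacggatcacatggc
Absence of a match says only that these letters are not in the window. Isg15, Bst2 and Cdk1 were chosen for display after their values were seen.

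Genes of antigen presentation and complement had mostly higher interactions among those called. Of 16 tested genes of the major histocompatibility complex (MHC) class I and antigen processing, 9 had a higher interaction, with a median of 0.86. H2-K1, a classical class I heavy chain, had 299.8, 249 and 212 CPM in SiO2 day 14 libraries, against 146, 91.4 and 145 CPM in SiO2 day 7 libraries. It had 54.0, 76.5 and 73.0 CPM in BLM day 14 libraries, against 150.0, 104 and 114 CPM in BLM day 7 libraries, with an interaction of 1.84 ± 0.22 (edgeR adjusted p = 3.49e-07). Silica day 14 libraries were the highest and bleomycin day 14 libraries the lowest. B2m, the class I light chain, had 1.37 ± 0.16 and Tap2, a subunit of the peptide transporter, 1.17 ± 0.18. H2-Eb1, a class II chain, had 113, 78.6 and 101 CPM in SiO2 day 14 libraries, against 24.3, 22.3 and 14.4 CPM in SiO2 day 7 libraries. It had 17.7, 34.1 and 42.6 CPM in BLM day 14 libraries, against 61.2, 71.3 and 131 CPM in BLM day 7 libraries, with an interaction of 3.71 ± 0.38. High libraries were those of SiO2 day 14 and BLM day 7. Cd74, the class II invariant chain, was far lower, with 8.02, 6.66 and 6.80 CPM in SiO2 day 14 libraries, against 3.01, 2.92 and 2.03 CPM in SiO2 day 7 libraries. Cd74 had 1.06, 5.98 and 2.49 CPM in BLM day 14 libraries, against 4.93, 5.02 and 7.29 CPM in BLM day 7 libraries. The 3 tested myeloid markers, Cd74 itself among them, are given with their sums at the end. They had a higher interaction, and their part here was not tested. The classical MHC genes resemble one another closely, and the deposited counts do not say how shared tags were assigned, so their separate values are uncertain; the same holds for the Gbp and Ifit families.

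Of 12 tested complement genes, 9 had a higher and 1 a lower interaction. C3, the central component, had 3348, 2907 and 2849.7 CPM in SiO2 day 14 libraries, against 1436, 1344 and 1115 CPM in SiO2 day 7 libraries. It had 933, 996 and 825 CPM in BLM day 14 libraries, against 1310.4, 1168 and 933 CPM in BLM day 7 libraries, with an interaction of 1.53 ± 0.18 (edgeR adjusted p = 2.05e-07). The silica day 14 libraries were the highest of the 12 for C3, and the bleomycin groups overlapped. C4b and C1ra, of the classical pathway, had 1.61 ± 0.18 and 1.31 ± 0.19. Cfi, the factor I protease that degrades C3b, was the member with a lower interaction (-1.78 ± 0.51), a call lost without the first SiO2 day 7 library (edgeR adjusted p = 0.0536) and under DESeq2 (adjusted p = 0.0873).

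Of 28 tested chemokines and cytokines, 6 had a higher and 2 a lower interaction, against 9.74% and 9.47% of all tested genes, so the lower count did not exceed the background. Csf1, the macrophage growth factor, had 1.32 ± 0.17 and Il33, an alarmin, 1.54 ± 0.32. Ccl19, which attracts lymphocytes and dendritic cells, had 133, 84.2 and 164 CPM in SiO2 day 14 libraries, against 30.1, 31.9 and 20.0 CPM in SiO2 day 7 libraries. It had 17.0, 30.8 and 24.6 CPM in BLM day 14 libraries, against 17.4, 15.8 and 13.3 CPM in BLM day 7 libraries, with an interaction of 1.58 ± 0.32. The silica groups were apart and the bleomycin groups overlapped. Cxcl12, which retains leukocytes, rose by 1.05 ± 0.14 in bleomycin, and its change of -0.28 ± 0.14 in silica was not called, with an interaction of -1.33 ± 0.20. Saa3, an acute-phase protein with close relatives in the genome, differed between the models at both times. It had 1139, 939 and 499.5 CPM in SiO2 day 14 libraries, against 1313, 1711 and 1286 CPM in SiO2 day 7 libraries. It had 93.9, 154 and 143 CPM in BLM day 14 libraries, against 365, 120.4 and 84.0 CPM in BLM day 7 libraries. The interaction was -0.20 ± 0.46 (edgeR adjusted p = 0.822; 95% interval -1.14 to 0.74), while silica exceeded bleomycin by 2.72 ± 0.35 at day 14 and by 2.92 ± 0.34 at day 7. Without the first BLM day 7 library, the highest bleomycin value, the Saa3 interaction was -1.09 and was called (edgeR adjusted p = 0.037). Cxcl5, a neutrophil attractant, fell in both models, with changes of -1.06 ± 0.17 in silica and -2.12 ± 0.50 in bleomycin, with an interaction of 1.05 ± 0.54 that was not called.

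**Figure D4:**
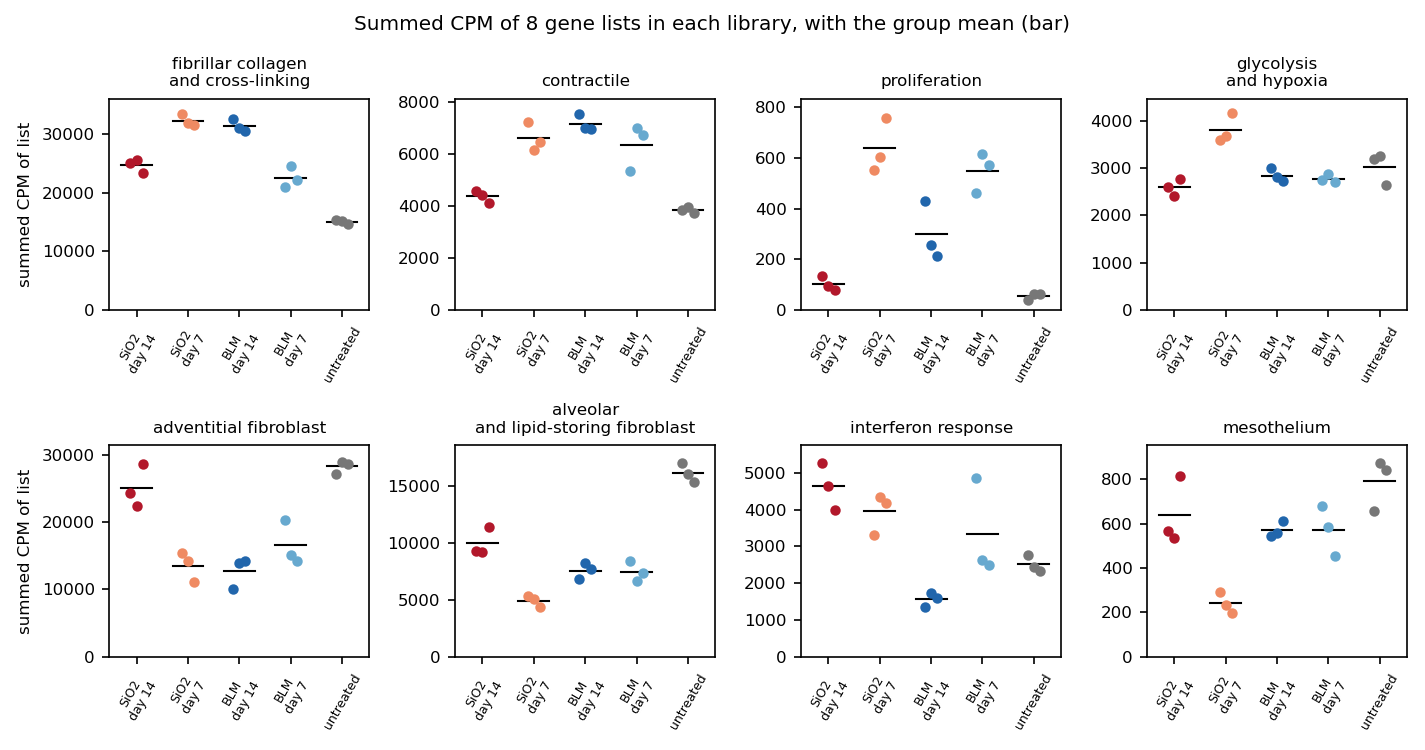
Summed CPM of the members of 8 gene lists in each library (points) with the mean of the 3 libraries (bar). The interferon list is lowest in BLM day 14 libraries, the proliferation list is lowest of the injured groups in SiO2 day 14 libraries, and the adventitial list is highest of the injured groups there.

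Metabolic lists also differed in their course. Of 20 tested genes of glycolysis and hypoxia, 11 had a lower and 2 a higher interaction, with a median of -0.97. Slc16a3, the lactate exporter, had 25.3, 19.7 and 21.1 CPM in SiO2 day 14 libraries, against 140.5, 162 and 165 CPM in SiO2 day 7 libraries. It had 20.5, 13.7 and 13.0 CPM in BLM day 14 libraries, against 15.4, 13.5 and 11.1 CPM in BLM day 7 libraries, with an interaction of -3.04 ± 0.26 (edgeR adjusted p = 6.35e-10). The SiO2 day 7 libraries were the only high ones. At day 7 silica exceeded bleomycin in 11 of the 20 members, against 5.29% of all tested genes, and in 7 without the third SiO2 day 7 library. Eno1 and Tpi1, glycolytic enzymes, had -2.50 ± 0.41 and -1.35 ± 0.22. Gapdh had -1.47 ± 0.26 at 33.4, 36.4 and 50.1 CPM in SiO2 day 7 libraries. Genes with many processed copies, such as Gapdh and those of ribosomal proteins, may lose tags that match several places, so their levels are uncertain. The members with a higher interaction were Pfkfb3, a regulator of glycolytic flux (1.29 ± 0.31), and Vegfa, an angiogenic factor (1.51 ± 0.40).

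Most genes of cholesterol synthesis fell in bleomycin between day 7 and day 14. Of 19 tested members, 10 had a higher interaction. In bleomycin 15 fell by day 14, or 9 without the first BLM day 7 or the third BLM day 14 library, against 4.82% of all tested genes as reported. In silica 2 rose and 1 fell, no more than the shares of 12.2% and 11.1% over all tested genes. Sc5d, a late enzyme of the pathway, had 13.4, 13.1 and 13.4 CPM in SiO2 day 14 libraries, against 8.03, 9.56 and 4.81 CPM in SiO2 day 7 libraries. It had 6.71, 7.17 and 4.97 CPM in BLM day 14 libraries, against 13.1, 10.8 and 10.8 CPM in BLM day 7 libraries, with an interaction of 1.71 ± 0.32 (edgeR adjusted p = 2.39e-04). In both models the groups were apart. Insig1, which retains the sterol sensor, had 1.20 ± 0.27.

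Cytosolic ribosomal protein genes had a lower interaction in 23 of 25 tested members, with a median of -0.58. In silica 25 of 25 fell by day 14, against 11.1% of all tested genes, and in bleomycin 2 rose, near the 5.20% of all tested genes. Rpl10a had 4494, 4072 and 4469 CPM in SiO2 day 14 libraries, against 7750.0, 7023 and 8526 CPM in SiO2 day 7 libraries. It had 6873, 6240.1 and 6281 CPM in BLM day 14 libraries, against 6147, 6955 and 6831 CPM in BLM day 7 libraries, with an interaction of -0.80 ± 0.13 (edgeR adjusted p = 2.72e-05). The SiO2 day 14 libraries were the lowest, and the bleomycin groups overlapped. Of 21 tested genes of oxidative phosphorylation 6 had a lower interaction, with Uqcrc2, a subunit of complex III, at -1.14 ± 0.21.

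Apart from the immediate-early list, given at the end, the remaining programme lists had at most 6 called members each. Over all tested genes 9.74% were higher and 9.47% lower. Amino acid synthesis and transport had 4 lower and 2 higher of 16; 2 were lower without the third SiO2 day 7 library and 1 was higher without the third BLM day 7 library. In that list Asns, asparagine synthetase, fell by 3.0 ± 0.34 in silica, with an interaction of -2.37 ± 0.45; the third SiO2 day 7 library was the highest at 61.2, 75.2 and 166 CPM in replicates 1, 2 and 3. The list for the NRF2 oxidative stress response had 5 higher and 1 lower of 16, the lower call (Mt2, a metallothionein, -1.01 ± 0.29) being lost without the third SiO2 day 7 library (edgeR adjusted p = 0.131) and under DESeq2 (adjusted p = 0.0573), and its leading members were detoxifying enzymes abundant in untreated fibroblasts. Aldh3a1, an aldehyde dehydrogenase, had 3.12 ± 0.40 and Gsta4, a glutathione transferase, 3.03 ± 0.28. Sod3, the extracellular superoxide dismutase, had 1.47 ± 0.19. The p53 and senescence list had 4 higher of 19, or 2 without the third SiO2 day 14 library. Cdkn1a, which encodes the cell cycle inhibitor p21, fell by 0.75 ± 0.15 in bleomycin and had an uncalled change of 0.11 ± 0.15 in silica, with an interaction of 0.86 ± 0.21. Unfolded protein response and secretion genes had 3 higher and 3 lower of 20. The list for lysosomes, 18 tested, and that for targets of liver X receptors, 17 tested, had at most 3 calls in either direction. In the lysosome list Gpnmb, a transmembrane glycoprotein, had -1.84 ± 0.34 and Ctsk, the collagen-degrading protease cathepsin K, -1.28 ± 0.31. In 9 lists no member was called in the direction opposite to the counts given here: interferon response, proliferation, ribosomal proteins, MHC class I, cholesterol, immediate-early, oxidative phosphorylation, p53 and mesothelium. That held for edgeR, DESeq2 and limma-voom, and no such member had an unadjusted edgeR p under 0.05.

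Of the named genes outside these lists, Ddah1, an enzyme that degrades methylarginine inhibitors of nitric oxide synthase, had the smallest adjusted p. It had 18.1, 18.9 and 12.6 CPM in SiO2 day 14 libraries, against 102, 107 and 112 CPM in SiO2 day 7 libraries. It had 41.0, 51.4 and 43.4 CPM in BLM day 14 libraries, against 8.71, 14.3 and 12.7 CPM in BLM day 7 libraries, with an interaction of -4.63 ± 0.24 (edgeR adjusted p = 2.41e-14). It was low in SiO2 day 14 and BLM day 7 libraries and high in the other groups. Lrrc15, a membrane protein of activated fibroblasts, had 2.38, 0.799 and 0.486 CPM in SiO2 day 14 libraries, against 26.1, 31.9 and 18 CPM in SiO2 day 7 libraries. It had 27.9, 29.0 and 31.0 CPM in BLM day 14 libraries, against 4.93, 10.6 and 8.87 CPM in BLM day 7 libraries, with an interaction of -6.24 ± 0.46 (edgeR adjusted p = 3.06e-11). SiO2 day 7 and BLM day 14 libraries were the high ones. Nt5e, the ecto-enzyme CD73, was found mainly in SiO2 day 7 libraries, at 15.3, 9.56 and 15.2 CPM, with an interaction of -4.71 ± 0.82. Tnn, tenascin N, had -5.05 ± 0.84, and its libraries were spread widely, at 3.76, 18.9 and 30.1 CPM in SiO2 day 7 and 25.1, 12.3 and 4.42 CPM in BLM day 14. On the higher side, Tppp, a tubulin-binding protein, had 46.1, 65.6 and 63.7 CPM in SiO2 day 14 libraries, against 13.5, 14.6 and 9.37 CPM in SiO2 day 7 libraries. It had 7.42, 9.86 and 10.2 CPM in BLM day 14 libraries, against 45.0, 32.7 and 33.3 CPM in BLM day 7 libraries, with an interaction of 4.22 ± 0.25 (edgeR adjusted p = 4.86e-13). Here SiO2 day 14 and BLM day 7 libraries were the high ones. Fxyd3, a regulator of the sodium pump, had 5.12 ± 0.57, and the third SiO2 day 14 library was the highest of 39.8, 24.8 and 85.3 CPM. Ly6c2, a surface antigen, had 4.36 ± 0.71, and Cbfa2t3, a transcriptional corepressor, 3.44 ± 0.49.

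Shisa6, a glutamate receptor accessory protein, had -4.43 ± 0.52 and Cngb3, a subunit of the cone photoreceptor channel, 4.48 ± 0.78. Ppl, periplakin, a cell junction protein, had 4.28 ± 0.71 and Col17a1, a collagen of hemidesmosomes, 3.63 ± 0.47. The named extremes also held LOC102642295 (-6.05 ± 0.60) and LOC105242711 (3.47 ± 0.47), which carry no gene name in the files. LOC105242499 had 1 count in the 3 BLM day 7 libraries together, and 19.4, 17.0 and 25.1 CPM in those of BLM day 14. Its call was lost under limma-voom (adjusted p = 0.0551) and without the second SiO2 day 7 library (edgeR adjusted p = 0.0508). Wfdc10 had 3 counts in the 3 BLM day 14 libraries together, and 3.27, 9.06 and 19.2 CPM in those of SiO2 day 14. No fold is given for these last 2, since so few counts do not fix one. LOC102642295 had 0.594, 1.87 and 0.243 CPM in SiO2 day 14 libraries, and Slc7a10 had 0.353, 1.79 and 1.38 CPM in BLM day 14 libraries. Cngb3 had 0.706, 0.598 and 2.21 CPM in BLM day 14 libraries, against 15.4, 3.17 and 2.85 CPM in BLM day 7 libraries. The sizes of the interactions of LOC102642295, Slc7a10 and Cngb3 are therefore also poorly determined.

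**Figure D5:**
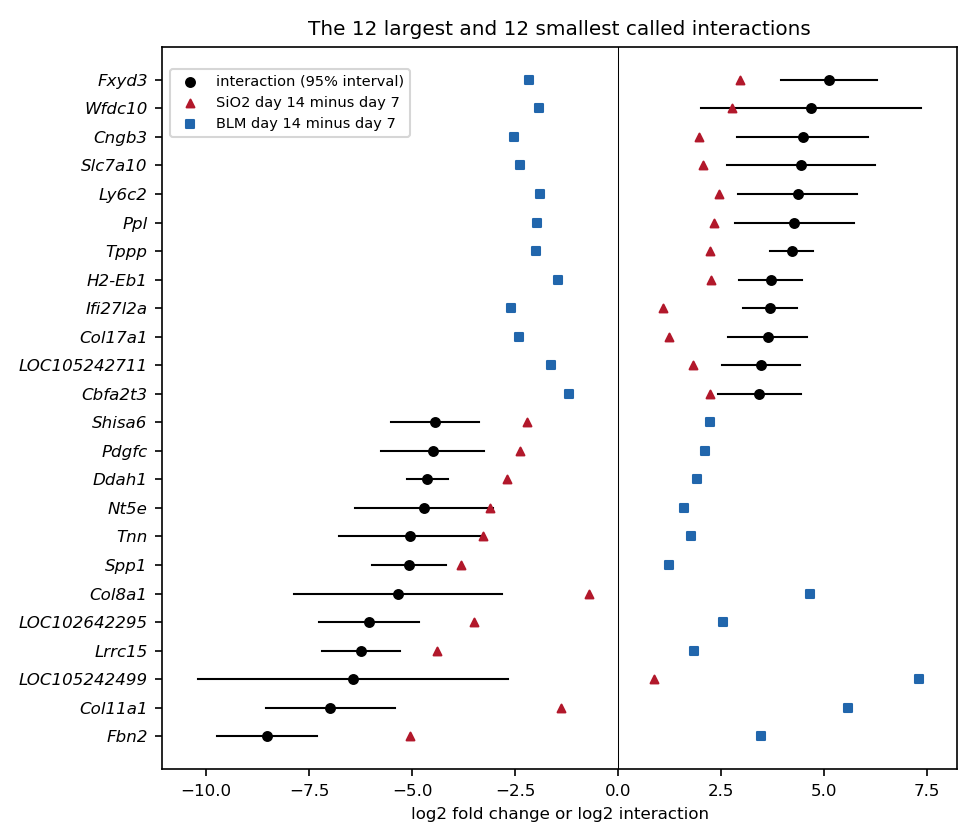
Log2 interaction with its 95% interval (black), and the log2 change from day 7 to day 14 in silica (red triangles) and in bleomycin (blue squares), for the 12 highest and the 12 lowest called interactions among those with a mean of at least 10 CPM in at least 1 group. In 23 of these the 2 changes lie on opposite sides of 0, which choosing genes by the difference of the 2 changes favours. The exception is LOC105242499. The interval is widest where a group has few counts.

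Some genes moved alike in both models. There were 192 genes called in both time changes with the same direction, of which 151 had no called interaction. Vcan, the proteoglycan versican, had 22.0, 28.5 and 28.9 CPM in SiO2 day 14 libraries, against 43.4, 60.0 and 48.3 CPM in SiO2 day 7 libraries. It had 26.5, 19.4 and 21.6 CPM in BLM day 14 libraries, against 43.8, 50.2 and 45.3 CPM in BLM day 7 libraries, and its called changes of -0.93 ± 0.16 in silica and -1.05 ± 0.17 in bleomycin left an interaction of 0.13 ± 0.23 with a 95% interval of -0.34 to 0.60. Bgn, biglycan, rose by 0.42 ± 0.08 in silica and 0.38 ± 0.08 in bleomycin, with an interval for the difference of -0.20 to 0.28. An interval that includes 0 does not show equal changes. These genes were chosen after their values were seen.

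Markers of other cell types were low or varied between groups, and their part in the results above was not tested. Of 16 myeloid markers 3 were tested, Tyrobp, C1qa and Cd74, and all 3 had a higher interaction. Tyrobp, a myeloid signalling adaptor, had 1.82 ± 0.37. The call of C1qa was lost without the second BLM day 7 or the first SiO2 day 14 library (highest edgeR adjusted p = 0.0591). The summed level of the list was 57.9, 46.1 and 34.3 CPM in SiO2 day 14 libraries, against 23.3, 20.5 and 18 CPM in SiO2 day 7 libraries. It was 23.3, 29.9 and 20.7 CPM in BLM day 14 libraries, against 28.7, 37.8 and 47.5 CPM in BLM day 7 libraries. All 8 tested mesothelial markers had a higher interaction, Msln, mesothelin, at 2.26 ± 0.34 and Krt19, a keratin, at 2.24 ± 0.38, and 5 were called with at least 10 CPM in 3 libraries required; the summed level was 566, 536 and 817 CPM in SiO2 day 14 libraries, against 293, 232 and 195 CPM in SiO2 day 7 libraries. It was 542, 557 and 610.4 CPM in BLM day 14 libraries, against 678, 585 and 454 CPM in BLM day 7 libraries, and the SiO2 day 7 libraries were the lowest. At day 7 all 8 were lower in silica than in bleomycin, against 5.10% of all tested genes, or 5 when the third SiO2 day 7 library was left out. Of 4 tested endothelial markers 3 were higher, with a summed level of at most 39.4 CPM in any of the 12 libraries. Of 6 tested pericyte and smooth muscle markers 3 had a lower interaction, among them Cspg4, the NG2 proteoglycan, at -2.90 ± 0.49, and Abcc9, a potassium channel subunit, had 0.95 ± 0.21. The 3 epithelial markers tested were not called in the interaction, nor was the 1 lymphocyte marker tested, Ccl5 (0.97 ± 0.38, edgeR adjusted p = 0.0698). Ccl5 passed without the third BLM day 7, the third SiO2 day 7, the first BLM day 14 or the third SiO2 day 14 library (lowest edgeR adjusted p = 0.0238). In all, Ccl5 passed in 5 of 20 alternatives, these omissions among them. Sftpc, surfactant protein C, fell in both models (-1.96 ± 0.33 in silica and -3.04 ± 0.38 in bleomycin). Immediate-early genes, which tissue digestion can induce, had a higher interaction in 13 of 21 tested members, Atf3 at 1.95 ± 0.26 and Klf4 at 1.33 ± 0.20; their summed level was 35917, 34353 and 45357 CPM in SiO2 day 14 libraries, against 27339, 27818 and 25095 CPM in SiO2 day 7 libraries. It was 25964, 30164 and 30755 CPM in BLM day 14 libraries, against 33638, 27293 and 34297 CPM in BLM day 7 libraries.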

How the data were processed

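Tags from the 3′ ends of RNA were sequenced by the authors from fibroblasts sorted by a Col1a2-driven GFP, and the deposited values are whole-number counts per gene symbol, not normalized, 1 file per library. Per the submitters' processing notes, reads were aligned with Bowtie2 2.2.5 to mm10; the annotation, the counting program, its use of strand and its handling of repeated tags are not given in the sources used here. No molecular identifiers are described, so the counts are of reads and not of molecules. Standard errors and intervals rest on the spread between libraries.

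Counts of all 21 libraries (7 groups of 3, totals 2080636 to 4477283) were fitted together with edgeR 4.0.16 in R 4.3.3, with TMM scaling, its default filter by group, and the quasi-likelihood test with 14 residual degrees of freedom. The filter left 11669 of 23204 symbols, which hold 99.68% of the counts. The interaction and the 4 contrasts within it were taken from that fit, with Benjamini-Hochberg adjustment over the 11669 genes. The 95% intervals were built from the standard errors worked back from the quasi-likelihood test. Since the 4 contrasts use the same libraries as the interaction, they describe it and do not test it again. DESeq2 1.42.0, limma-voom (limma 3.58.1), other scalings, filters and library sets were alternatives.

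Genes were named by rule: the 12 largest and 12 smallest called interactions with a mean of at least 10 CPM in some group, per list up to 3 members by lowest adjusted p, and 12 fixed genes. Some of these genes are not reported here. Other named genes were chosen after their values were seen. The comparison, lists and rule were chosen with earlier results of these data known. The model was run on simulated counts for the 11669 genes, where 3.91% of calls were unchanged genes. Those counts were drawn with the dispersions of the fit itself, and a small set of genes was changed in SiO2 day 14 libraries only. Misfit of the model to the data could therefore not show there. Promoter windows and gene coordinates are those of RefSeq for GRCm38.p6, the assembly that mm10 names; 18857 of the 23204 symbols matched a RefSeq symbol.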

Additional observations from a re-analysis of the deposited data

Results flagged for a closer look

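A difference between the models in their change from day 7 to day 14, tested by the interaction term itself, set apart 2242 genes. Of these, 129 were given with a value above, 66 higher and 63 lower, and each value below is the log2 interaction of a called gene. The 4 groups had 3 libraries each, too few for a test of a single library against its group.

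Among matrix genes (collagens, glycoproteins, proteases and basement membrane), the interaction was below 0 for Col11a1 (-6.98), Spp1 (-5.07), Thbs4 (-4.29), Col12a1 (-4.0), Cthrc1 (-3.90), Thbs2 (-3.81), Adam12 (-3.76), Nid2 (-3.42), Postn (-3.17), Fmod (-2.62), Adam19 (-2.59) and Adamts12 (-2.34). Further lower ones here were Fn1 (-2.22), Col1a1 (-1.83), Col5a1 (-1.80), Lox (-1.58), Col1a2 (-1.44), Col3a1 (-0.69) and Timp1 (-0.69). It was above 0 for Fbln1 (2.2), Npnt (2.13), Mmp3 (1.52), Col14a1 (1.26), Lama4 (1.03), Dcn (1.03), Col6a2 (0.87) and Mmp2 (0.74). For contractile and proliferation genes, it was negative in Actg2 (-3.50), Cdk1 (-3.34), Top2a (-2.10), Tk1 (-2.06), Acta2 (-1.96), Tpm2 (-1.81), Nusap1 (-1.66) and Tpm1 (-1.56). The positive ones were Synpo2 (1.38) and Myh10 (0.51). Of signalling genes and growth factors, those below 0 were Pdgfc (-4.50), Inhba (-4.02), H19 (-3.90), Grem1 (-3.71), Igfbp2 (-3.13), Rspo3 (-3.12), Ereg (-2.93), Fst (-2.68), Gdnf (-2.44), Bdnf (-1.70), Pdgfrb (-1.68) and Tgfb1 (-1.27). Further lower ones here were Igfbp3 (-1.16) and Fzd1 (-1.12). Above 0 lay Wnt2 (2.56), Hey2 (2.27), Ltbp4 (2.13), Bmp4 (1.46) and Axin2 (1.00).

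Within genes of adventitial and alveolar fibroblasts, negative interactions were those of Lpl (-1.11) and Igfbp4 (-0.63). Positive ones were those of Slc7a10 (4.44), Dpp4 (3.40), Gsn (3.26), Pcolce2 (3.17), Inmt (3.04), Clec3b (2.98), Igfbp6 (2.81), Pi16 (2.36), G0s2 (2.31), Ces1d (2.28), Itga8 (1.28) and Tcf21 (0.85). In immune genes (interferon response, antigen processing, complement and chemokines), values below 0 belonged to Cfi (-1.78) and Cxcl12 (-1.33). Values above 0 belonged to Irf7 (3.26), Ifit3 (2.84), Gbp3 (2.77), Oasl2 (2.26), Isg15 (2.19), H2-K1 (1.84), Bst2 (1.66), C4b (1.61), Ccl19 (1.58), Il33 (1.54), C3 (1.53) and B2m (1.37). Further higher ones here were Csf1 (1.32), C1ra (1.31) and Tap2 (1.17). Across metabolic, ribosomal and stress genes, the lower calls were Slc16a3 (-3.04), Eno1 (-2.50), Asns (-2.37), Gpnmb (-1.84), Gapdh (-1.47), Tpi1 (-1.35), Ctsk (-1.28), Uqcrc2 (-1.14), Mt2 (-1.01) and Rpl10a (-0.80). The higher calls were Aldh3a1 (3.12), Gsta4 (3.03), Sc5d (1.71), Vegfa (1.51), Sod3 (1.47), Pfkfb3 (1.29), Insig1 (1.20) and Cdkn1a (0.86). Turning to markers of other cell types and immediate-early genes, negative values were those of Cspg4 (-2.90). Positive values were those of Msln (2.26), Krt19 (2.24), Atf3 (1.95), Tyrobp (1.82), Klf4 (1.33) and Abcc9 (0.95). Outside the lists, the lower genes were Fbn2 (-8.53), Lrrc15 (-6.24), LOC102642295 (-6.05), Tnn (-5.05), Nt5e (-4.71), Ddah1 (-4.63) and Shisa6 (-4.43), and the higher genes were Fxyd3 (5.12), Cngb3 (4.48), Ly6c2 (4.36), Ppl (4.28), Tppp (4.22), H2-Eb1 (3.71), Ifi27l2a (3.69), Col17a1 (3.63), LOC105242711 (3.47) and Cbfa2t3 (3.44).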

How the results depend on the processing

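The number of called interactions ran from 1747 (without the first BLM day 7 library) to 2239 across the alternatives, against 2242 as reported, and no shared call changed sign in any of them. DESeq2 called 2035 (1059 higher and 976 lower), limma-voom 2227, edgeR with DESeq2 size factors 2239 and with upper quartile factors 2225. Testing every gene with a count gave 2142, at least 10 CPM in 3 libraries 2068 of 7378 genes, and a fit of only the 12 libraries 2060. Leaving out each library in turn gave 883 to 1165 higher and 845 to 1058 lower interactions. The same omissions gave 2037 to 2797 genes for the silica change, 661 to 1210 for the bleomycin change, 1372 to 2043 for the day 14 gap and 842 to 1289 for the day 7 gap. The bleomycin change was the only one of these counts to move by over 1.5 times, to 661 without the first BLM day 7 library, and the cause was not tested.

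With the replicate number as a block, 2187 interactions were called (1108 higher and 1079 lower), 2152 of them shared with the fit without it. The numbers did not pair the libraries: none of 18 same-number pairs had a correlation of deviations over 0.1 (-0.12 to 0.056), and 1 of 12 libraries had its best partner at its own number. Of 176 called genes followed singly, 161 kept call and sign in every alternative that gave a value, 15 lost the call without at least 1 library, and no sign reversed. Some list counts moved by over 1.5 times under other settings. With at least 10 CPM in 3 libraries, where fewer members were tested, 10 proliferation genes were lower and 5 mesothelial and 1 endothelial markers were higher. With no filter on low counts, 5 Wnt genes were lower and 12 interferon genes rose in silica, against 3 under DESeq2 or with only the 12 libraries. In simulated counts 8.96% of genes changed by 1.5-fold, 25.9% by 2-fold and 76.3% by 4-fold were recovered, so a small interaction could be missed at this depth.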
